A study of Mus musculus with 12 samples.

Results

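The genes described are 10 enzymes of muscle glycolysis in mouse quadriceps: Hk2, Gpi1, Pfkm, Aldoa, Tpi1, Gapdh, Pgk1, Pgam2, Eno3 and Ldha. They were chosen by symbol, for the step each enzyme catalyses in muscle and not for any measured value, and all 10 were found among the 15344 genes of the deposited tables. RNA sequencing was performed on 12 quadriceps libraries in 3 groups of 4, all from mice of the C57BL/6 strain at 6 months of age. The WT group was untreated. By the labels, which the Gaa counts given below go against, the KO group carried the Gaa knockout and received PBS, and the AAV group carried the same knockout and received AAV2/8-LSPhGAApA by tail vein at 2 months, at 2e12 vg/kg. This vector holds a human GAA sequence behind a liver-specific promoter, so that the enzyme is made in liver and reaches muscle through the blood, and the study's methods give the sex of the injected mice as male. By label the knockout is thus shared by the KO and AAV groups, and KO libraries serve in both of the study's comparisons (KO vs WT, AAV vs KO).

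Glycolysis splits glucose into pyruvate in the cytosol and yields ATP without oxygen, and lactate dehydrogenase turns pyruvate into lactate when fast fibres work hard. Skeletal muscle uses its own isoforms for several steps, while other cells use widespread ones. In Pompe disease glycogen collects in lysosomes because acid alpha-glucosidase (GAA) is missing, whereas the cytosolic route from glycogen into glycolysis does not need that enzyme.

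Before the enzymes were compared, the targeted gene was checked. Gaa had normalized counts of 343, 14640, 324 and 460 in WT libraries 1 to 4, of 11936 to 13075 in the KO libraries and of 947, 587, 500 and 9854 in AAV libraries 1 to 4. These values go against the labels, since every library labelled KO held more Gaa RNA than WT 1, 3 and 4, and WT 2 and AAV 4 stood apart from the others of their label. Which part of Gaa the knockout removes is not given in the sources used here. Groups are therefore named by label throughout, and every direction below is that of libraries labelled so. Fast fibre markers (10 of 10 in the table) summed to between 5144720 and 8679729 normalized counts in all libraries. Slow fibre markers (8 of 8) summed to 3698 to 7178 in WT, 1369 to 1579 in KO and 3453 to 27947 in AAV, and macrophage markers (5 of 6) to 704 to 2389, 439 to 844 and 520 to 2502. Endothelial markers (6 of 6) summed to 1683 to 4776 in WT, 3835 to 5202 in KO and 3231 to 5427 in AAV. In bulk muscle, fewer cells of a type and less RNA per cell cannot be told apart. Total reads ranged from 22122233 to 47379737 per library. The labels give each library a number and an identifier of its own but do not say that the libraries of a group came from separate mice; if they did not, p-values measure only technical spread.

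The enzymes covered a wide range of levels. Per kilobase of exon, the normalized count over 12 libraries was highest for Aldoa (129379 to 219797), followed by Eno3 (52592 to 128853) and Pgam2 (80196 to 126183). Pfkm lay at 27140 to 45641, Ldha at 15780 to 28743 and Tpi1 at 13520 to 24696 per kilobase. Gpi1 (2548 to 4573) and Hk2 (1643 to 3690) were lower, and Pgk1 (309 to 554) and Gapdh (64.7 to 139) lowest. Aldoa exceeded Eno3 in 12 of 12 libraries and their ranges did not meet. Eno3 and Pgam2 were not separated, with Eno3 above Pgam2 in 9 libraries, and neither were Gpi1 and Hk2, with Gpi1 above Hk2 in 9. The ranges of Pfkm and Ldha overlapped, as did those of Ldha and Tpi1, but Pfkm, Ldha and Tpi1 kept this order in all 12 libraries. These lengths join the exons of all annotated transcripts of a gene. For Gpi1 (6452 bases), Ldha (3310) and Gapdh (4133) they far exceeded the transcript searched for copies below (2884, 1766 and 1420). For Hk2 (5969 and 5513) and Pfkm (3340 and 2879) the lengths were closer. The order of Gpi1 against Hk2, and of Pfkm against Ldha, is therefore that of these lengths and was not tested with others.

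The low place of Gapdh and Pgk1, enzymes of neighbouring steps of one pathway, went with the sequence of their genes. Only reads with 1 place in the genome were counted by the authors, and both transcripts have near-identical copies elsewhere in the genome. In GENCODE M21, 151 other genes, 147 of them pseudogenes, matched 50% or more of the Gapdh transcript with 90% or more identical bases, and 17.5% of its 50-base stretches occurred in no other transcript. Pgk1 had 2 such copies and 32.0% unique stretches. Aldoa (86.1%), Ldha (82.9%), Gpi1 (80.4%) and Tpi1 (92.5%) were largely unique, and Hk2, Pfkm, Pgam2 and Eno3 were unique at 100% of stretches. The level of Gapdh and Pgk1 is therefore uncertain, and their order against the other enzymes is that of the counted reads. The part of uncounted reads in these levels was not tested.

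Stretches of 90 bases from the middle of each coding sequence set members that match a copy at every base of the stretch beside members that differ from theirs. They are given 5′ to 3′ from the GRCm38 transcripts, with bases that differ between gene and copy in capitals. Gapdh is shown with Gm2606, a processed pseudogene (chr15:12574889-12575890, + strand), over coding bases 455 to 544, and Pgk1 with Pgk1-rs7 (chr12:10898986-10900240, - strand) over coding bases 581 to 670; both pairs differ at 0 positions.
Gapdh: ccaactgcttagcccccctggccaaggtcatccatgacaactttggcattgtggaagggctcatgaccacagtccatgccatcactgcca
Gm2606: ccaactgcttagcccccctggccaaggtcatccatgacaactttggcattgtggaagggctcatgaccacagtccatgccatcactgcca
Pgk1: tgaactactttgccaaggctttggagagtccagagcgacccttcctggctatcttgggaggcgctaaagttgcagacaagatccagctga
Pgk1-rs7: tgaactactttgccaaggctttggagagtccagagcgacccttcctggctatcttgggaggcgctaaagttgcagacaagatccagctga
Ldha is shown with Gm11814 (chr4:10438815-10439743, - strand) over coding bases 453 to 542, which differ at 7 positions, and Aldoa with Gm5389 (chrX:57659732-57660907, + strand) over coding bases 501 to 590, which differ at 3.
Ldha: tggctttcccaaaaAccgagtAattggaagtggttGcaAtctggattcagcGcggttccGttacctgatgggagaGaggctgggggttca
Gm11814: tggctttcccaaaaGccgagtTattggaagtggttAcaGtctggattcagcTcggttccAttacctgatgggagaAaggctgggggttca
Aldoa: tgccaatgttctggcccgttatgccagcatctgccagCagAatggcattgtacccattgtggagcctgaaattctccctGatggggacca
Gm5389: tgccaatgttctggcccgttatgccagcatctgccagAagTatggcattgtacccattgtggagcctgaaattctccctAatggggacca

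**Figure D1:**
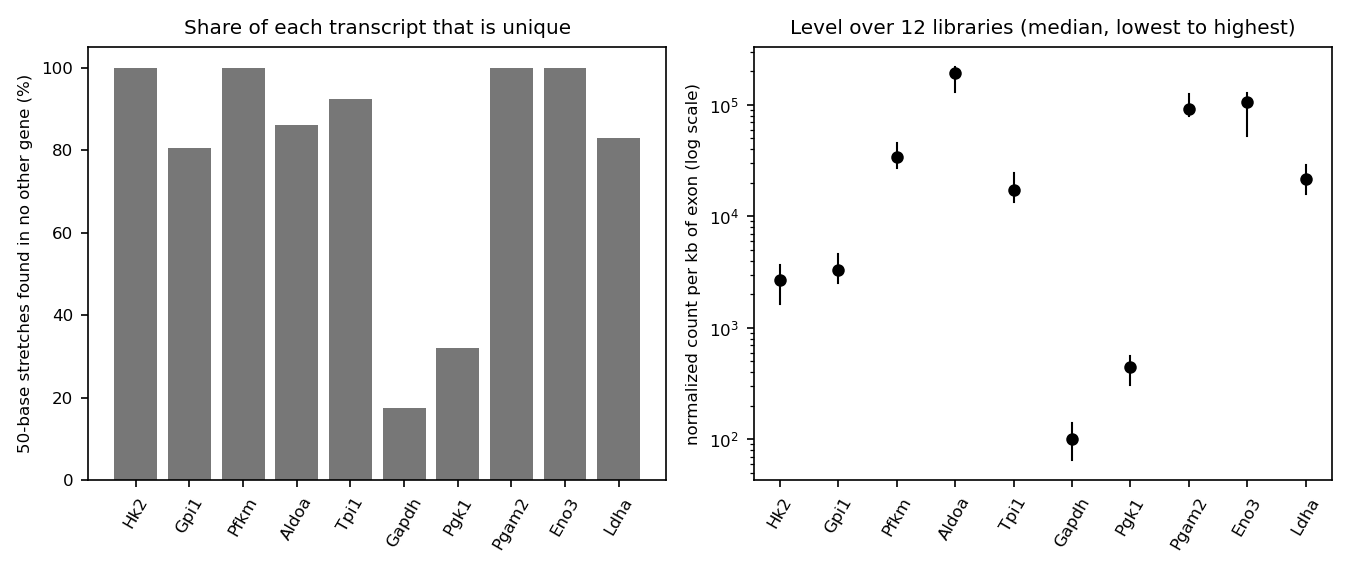
Left, the share of 50-base stretches of each member's transcript found in no other gene (%). Right, the normalized count per kilobase of exon over 12 libraries on a log scale, with the median as a point and a line from the lowest to the highest library. Gapdh (17.5%) and Pgk1 (32.0%) have the least unique sequence and the lowest levels.

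The upper steps trap and commit glucose. Hk2 (ENSMUSG00000000628, chr6:82725025-82774454 in GRCm38) encodes hexokinase 2, the isoform of insulin-responsive muscle that phosphorylates glucose. Its normalized counts were 9809, 10587, 13921 and 12378 in WT libraries 1 to 4, 15082, 16652, 20273 and 17859 in KO, and 22028, 21362, 17109 and 14829 in AAV. Every KO and every AAV library lay above every WT library. Between KO and WT Hk2 was higher in KO (log2 fold change 0.59 ± 0.15 (SE), limma with Benjamini-Hochberg adjustment, adjusted p = 0.0188, n = 4 and 4). Hk2 was the one member that passed the test. This call was lost when WT 1, KO 3 or KO 4 was left out (adjusted p = 0.0525, 0.0561 and 0.0511 by limma). AAV against KO gave 0.10 (95% interval -0.26 to 0.45) and AAV against WT 0.68 (0.27 to 1.09) with an adjusted p of 0.103 by limma.

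The RefSeq sequence before the Hk2 start (GRCm38.p6, chr6:82774455-82774704, - strand) is shown because Hk2 was the member that differed. Capitals mark CACGT, which is ACGTG read on the other strand, a form of the core of the hypoxia response element. The form GCGTG was not searched.
Hk2 upstream: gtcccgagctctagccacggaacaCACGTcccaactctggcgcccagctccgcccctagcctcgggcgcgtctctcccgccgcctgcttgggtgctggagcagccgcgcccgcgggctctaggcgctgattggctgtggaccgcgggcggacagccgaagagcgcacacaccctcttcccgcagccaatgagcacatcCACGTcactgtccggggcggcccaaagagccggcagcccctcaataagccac
ACGTG or CACGT occurred at 2 places there, and 16.6% of 32851 RefSeq promoters held either in the same 250 bases. At 1 or more of their listed starts Ldha, Pfkm, Pgk1 and Aldoa held these letters too, while the windows of Gpi1, Tpi1, Gapdh, Pgam2 and Eno3 did not. The palindrome CACGTG holds both forms and is counted on each strand. These matches are descriptions of sequence and not of binding.

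Gpi1 (ENSMUSG00000036427, chr7:34201330-34230336) encodes glucose-6-phosphate isomerase, which makes fructose-6-phosphate. It had 24631, 29506, 16439 and 22002 normalized counts in WT, 22055, 19820, 19676 and 20604 in KO, and 20114, 16995, 24046 and 21850 in AAV. The WT libraries spanned both other groups, and no comparison passed the test, with log2 fold changes of -0.14 ± 0.17 (KO vs WT), 0.00 ± 0.13 (AAV vs KO) and -0.14 ± 0.21 (AAV vs WT; SE, limma).

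Pfkm (ENSMUSG00000033065, chr15:98092589-98132451) encodes the muscle subunit of phosphofructokinase, the committing step. Its counts were 108861, 117854, 105646 and 91316 in WT, 144263, 126342, 134998 and 129841 in KO, and 90648, 108923, 152442 and 101740 in AAV. All KO libraries exceeded all WT libraries, and AAV 3 was the highest library of all. The difference of KO from WT, 0.34 ± 0.15, did not pass the test (limma adjusted p = 0.106), though DESeq2 on the recovered reads called it (adjusted p = 0.0214).

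The middle steps split the 6-carbon sugar. Aldoa (ENSMUSG00000030695, chr7:126795234-126800751), the aldolase of muscle, had 546025, 629484, 476990 and 425352 normalized counts in WT, 639830, 601938, 577329 and 604308 in KO and 376623, 434317, 623425 and 462129 in AAV. It made up 47.5% to 51.8% of the counts of the 10 members in every library. AAV 1, 2 and 4 lay below the KO libraries and AAV 3 within them. The difference of AAV from KO was -0.38 ± 0.26 (limma adjusted p = 0.290). Tpi1 (ENSMUSG00000023456, chr6:124810586-124814296), which interconverts the triose phosphates, ranged from 39373 to 51771 in WT, 46601 to 53341 in KO and 37220 to 67987 in AAV. Its differences were within 0.10 on the log2 scale in all 3 comparisons.

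The lower steps yield ATP. Gapdh (ENSMUSG00000057666, chr6:125161715-125166467), the oxidising step, had 414, 407, 432 and 267 normalized counts in WT, 420, 443, 336 and 364 in KO and 575, 442, 529 and 418 in AAV. Its groups overlapped in each comparison. AAV against KO gave 0.32 ± 0.15 (limma adjusted p = 0.120), and with scaling by total counts 0.49 (adjusted p = 0.0375), a scaling that also raised the median of all genes, as given below. The 124 Gapdh pseudogenes in the table summed to 4926 to 7788 in WT, 6355 to 7272 in KO and 2468 to 6466 in AAV, more than the gene itself in every library. AAV 1 held the highest Gapdh count (575) and the lowest pseudogene sum (2468). Reads that fit several of these genes were not counted, so that neither value stands for the whole of Gapdh RNA.

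Pgk1 (ENSMUSG00000062070, chrX:106187100-106203699), the first ATP-forming kinase, ranged from 694 to 1055 in WT, 891 to 1027 in KO and 708 to 1242 in AAV, with differences within 0.06 on the log2 scale. Pgam2 (ENSMUSG00000020475, chr11:5801640-5803733), the muscle phosphoglycerate mutase, had 67364, 86897, 75223 and 68300 counts in WT, 78620 to 87070 in KO and 72978, 72266, 105994 and 70516 in AAV. KO against WT gave 0.15 ± 0.14 (limma adjusted p = 0.438). With a correction for gene length the same difference was 0.56 (adjusted p = 0.0170); at 840 bases of exon Pgam2 is the shortest member.

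Eno3 (ENSMUSG00000060600, chr11:70657202-70662513), the muscle enolase, showed the widest spread of the members within the AAV group (coefficient of variation 37.0%). It had 186501, 200588, 171856 and 145811 counts in WT, 206531, 191747, 184799 and 197483 in KO, and 91457, 138820, 224076 and 141720 in AAV. AAV 1, 2 and 4 were below all KO libraries and AAV 3 above them all. The difference of AAV from KO was -0.46 ± 0.26 (95% interval -1.04 to 0.12, limma adjusted p = 0.208). Without AAV 3 it was -0.68 and passed the test (adjusted p = 0.0288, limma). Calls over all genes rose too in that fit, from 1911 higher and 1999 lower to 2528 and 2543.

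Ldha (ENSMUSG00000063229, chr7:46841475-46855627) encodes the lactate dehydrogenase subunit that predominates in fast muscle. It had 80460, 86969, 62411 and 68867 counts in WT, 78954, 73959, 62892 and 71893 in KO and 52232, 64696, 95138 and 71992 in AAV. The groups overlapped and no difference exceeded 0.1 on the log2 scale, with 95% intervals from -0.60 to 0.41. Pkm, the pyruvate kinase gene of muscle, stands outside the 10 and was counted at 49903 to 80336 in WT, 71704 to 74411 in KO and 51361 to 84097 in AAV (KO vs WT 0.16 ± 0.18, limma adjusted p = 0.508).

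**Figure D2:**
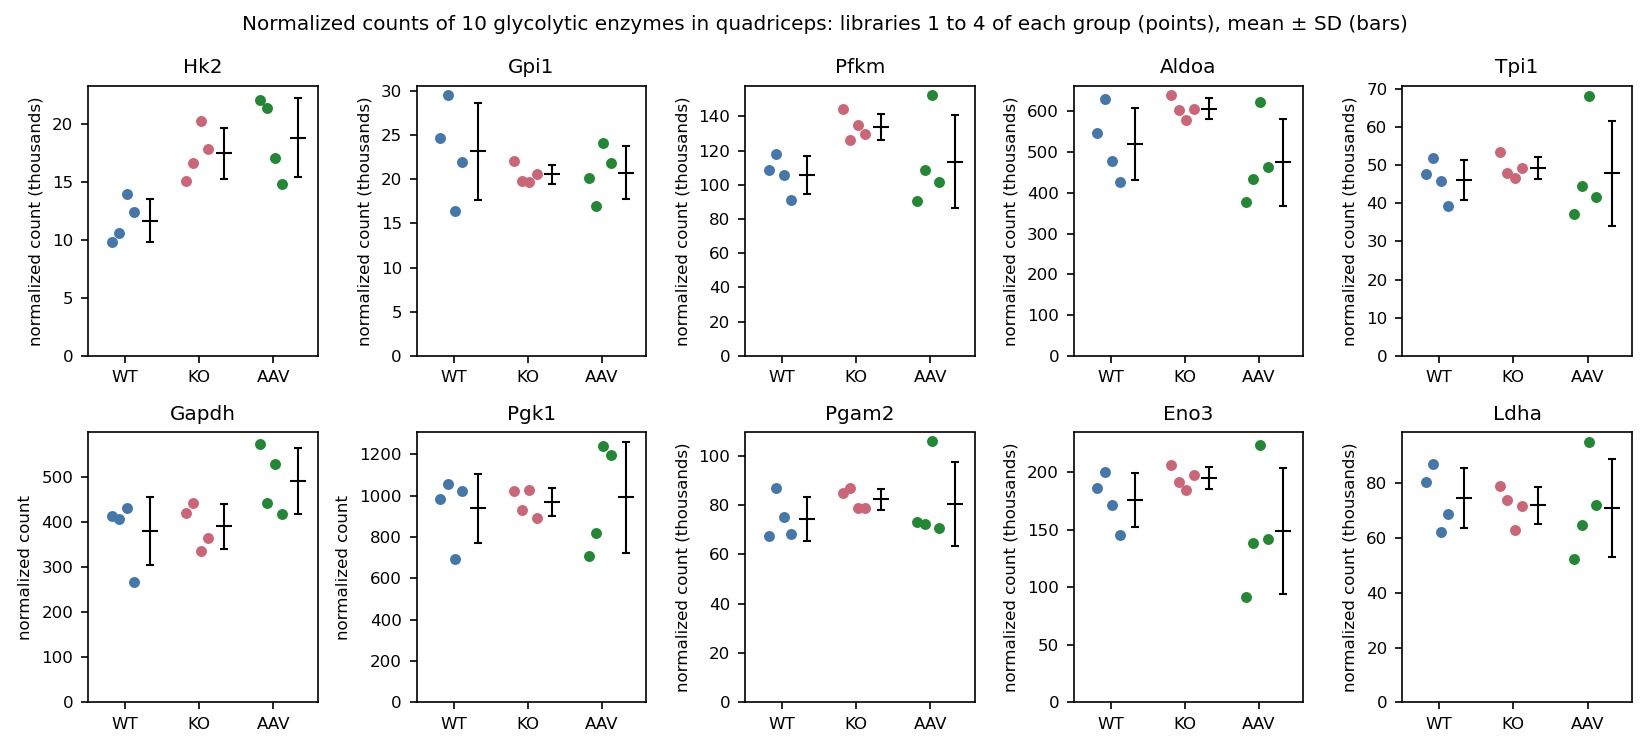
Normalized counts of the 10 members (vertical axes, from 0, in units of 1000 for 8 of them) in libraries 1 to 4 of the WT, KO and AAV groups (points, in that order), with mean ± SD beside them. Hk2 is higher in all KO and AAV libraries than in all WT libraries, and AAV 3 is the highest AAV library for 8 of the other 9 members.

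For the 10 members together, 1 of 10 was called higher in KO than in WT (Hk2), where 12.3% of the 14859 genes tested were called higher, and 0 were called lower, where 15.3% of genes were (limma, adjusted p under 0.05). At an unadjusted p under 0.05, 2 members differed, both higher, against 42.4% of all genes in either direction. Called members numbered 1 higher with edgeR and 2 with DESeq2, and 0 lower with either. Over the 14859 genes edgeR called 1578 higher and 2401 lower, and DESeq2 2006 and 2858. Groups did not overlap for 2 of 10 members (Hk2 and Pfkm), against 28.3% of all genes tested.

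Between AAV and KO 0 members were called in either direction, against 12.8% of 14894 genes called higher and 13.4% called lower. At an unadjusted p under 0.05, 1 member differed (Gapdh, higher), against 41.1% of genes in either direction, edgeR and DESeq2 called 0, and groups overlapped for all 10, where 30.6% of genes did not overlap. Between AAV and WT 0 members were called by limma or edgeR, where limma called 0.951% of 14939 genes higher and 0.341% lower. DESeq2 called 1 member, Hk2, higher (adjusted p = 0.0128), where it called 624 of the 14939 genes higher and 327 lower. In that comparison 1 member, higher in AAV, differed at an unadjusted p under 0.05, against 18.2% of genes in either direction, and the groups of 1 member did not overlap, against 11.7% of genes.

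The median log2 fold change of the members was 0.13 for KO vs WT (0.02 over all genes), -0.05 for AAV vs KO (0.04) and 0.04 for AAV vs WT (-0.03). Scaling by total counts shifted the median of all genes to 0.21 for AAV vs KO and 0.12 for AAV vs WT, and that of the members to 0.12 and 0.19. Against the median of all genes the members thus lay at -0.0913 and -0.0916 in AAV vs KO under the 2 scalings, and at 0.0696 and 0.071 in AAV vs WT. Total count scaling also changed the split of calls over all genes, from 1911 higher and 1999 lower to 2397 and 1270 in AAV vs KO, and from 142 and 51 to 283 and 35 in AAV vs WT. With the gene length correction the members' median was 0.295 in KO vs WT (9 of 10 members positive, against 8 without it) and -0.14 in AAV vs KO. The median also moved with single libraries: in AAV vs KO it was 0.02 without AAV 1 and -0.20 without AAV 3, and in AAV vs WT it was -0.12 without AAV 3, -0.03 without WT 3 and -0.02 without WT 4. No common direction of the members is read from these medians. A difference of at least 1 on the log2 scale with an adjusted p under 0.05 was reached by 0 members in each comparison, against 13.9% of genes in KO vs WT, 8.98% in AAV vs KO and 0.951% in AAV vs WT. The interval for Eno3 in AAV vs KO was the only one that reached -1 between AAV and KO.

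**Figure D3:**
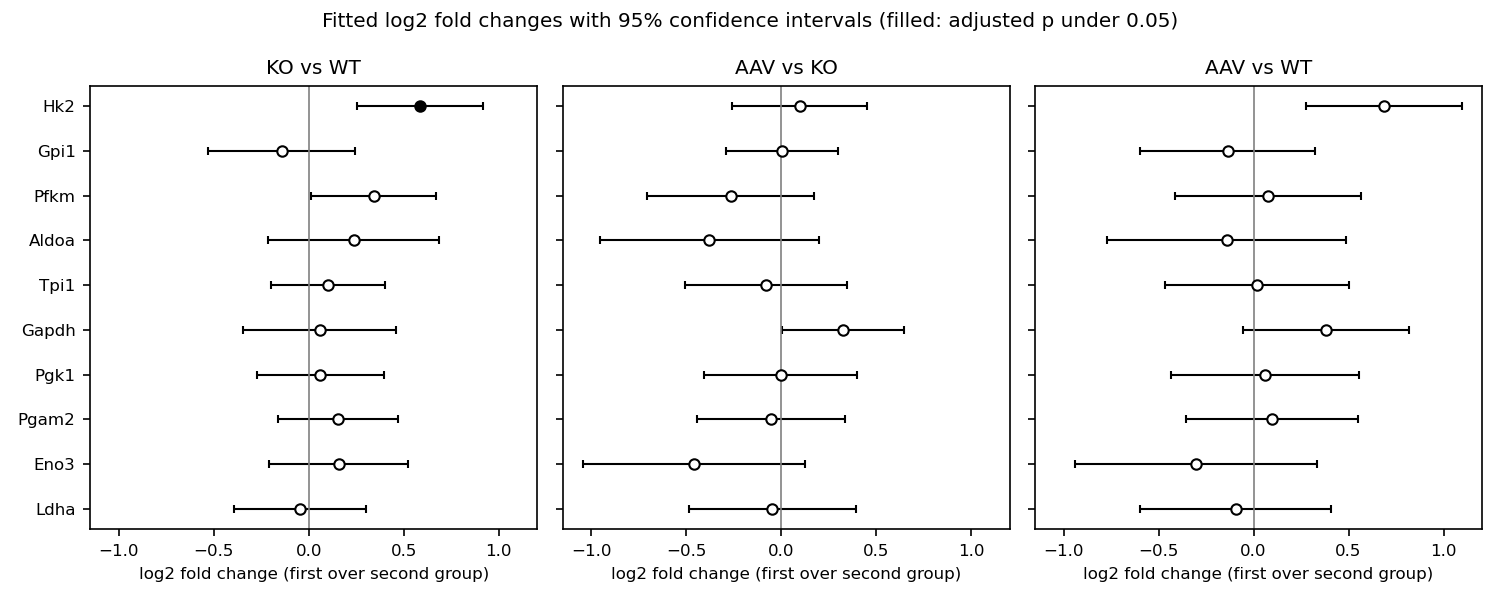
Log2 fold changes (horizontal axis) of the 10 members in the 3 comparisons, first group over second, with 95% confidence intervals; filled points passed an adjusted p of 0.05. Only Hk2 in KO vs WT is filled, at 0.59.

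Together the 10 members held 2.52% to 3.54% of all normalized counts in WT, 3.24% to 3.42% in KO and 2.51% to 3.67% in AAV, with means of 2.97%, 3.35% and 3.09%. KO libraries were the most alike: their coefficient of variation was 4.25% for Aldoa and 12.6% at most (Gapdh), against 10.4% to 23.5% in WT and 14.3% to 37.0% in AAV. In AAV 3 all 10 members were above their own mean over 12 libraries, while in WT 3, WT 4, AAV 1 and AAV 2 only 2 of 10 were. AAV 3 also held the highest sum of fast fibre markers among the AAV libraries, 8390854. Its part in the enzyme levels was not tested.

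The genes whose pattern over the 12 libraries was nearest to the mean pattern of the members were Slc35a4, Mul1, Slc9a8, Dnajc11 and Copg1, among 3362 genes with a mean of at least 1000. Their root mean square distances were 0.0863 to 0.104 on the centred log2 scale. The members themselves lay between 0.0825 (Pgam2) and 0.398 (Hk2) from that mean, so that Hk2 departed most from the others. The mean pattern ran only from -0.22 (WT 4) to 0.35 (AAV 3).

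Several widespread isoforms of the same steps differed between the groups. Of 21 listed isoform genes 12 were tested; 0 rose and 4 fell in KO against WT, where 12.3% of all genes rose and 15.3% fell, and 3 rose and 0 fell in AAV against KO, where 12.8% rose and 13.4% fell. Hk1, the hexokinase of most other tissues, had 1643, 1770, 243 and 1457 normalized counts in WT, 197, 240, 263 and 179 in KO, and 600, 338, 306 and 1631 in AAV. WT 3 lay within the KO range, and every AAV library was above the KO libraries. Hk1 fell by 2.21 ± 0.55 on the log2 scale in KO vs WT (limma adjusted p = 0.0171) and was 1.37 ± 0.45 higher in AAV vs KO (adjusted p = 0.0473).

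Eno1, the enolase of most cells, had 630, 776, 427 and 613 counts in WT, 360, 369, 383 and 309 in KO and 387, 476, 606 and 502 in AAV, without overlap between KO and either other group. It fell by 0.75 ± 0.18 in KO vs WT (limma adjusted p = 0.0152) and was 0.46 ± 0.15 higher in AAV vs KO (adjusted p = 0.0481). With 27.8% unique stretches, Eno1 is as uncertain in level as Pgk1. The AAV vs KO calls of Hk1 and Eno1 were weak: that of Hk1 was lost without any of the KO libraries or AAV 1 (limma adjusted p = 0.0704 to 0.111), and that of Eno1 without any of the KO libraries or AAV 2, 3 or 4 (0.0704 to 0.127). In a fit of all 12 libraries neither was called (0.125 and 0.0946), and edgeR did not call Eno1 (0.0523). Eno2, the neuronal enolase, was the other isoform gene that fell in KO vs WT, by 1.25 ± 0.37 (limma adjusted p = 0.0315), a call lost without WT 1, 2 or 4 or KO 1, 2 or 4 (0.0557 to 0.0883) and in the fit of all 12 (0.0611). In AAV vs KO Eno2 was not called by limma (1.31 ± 0.45, adjusted p = 0.0551, and 0.00513 without AAV 3) but was called higher by edgeR and DESeq2 (0.0338 and 0.00586).

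Ldhb, the subunit of oxidative tissue, had 923, 2597, 3564 and 2993 counts in WT, 632, 1246, 1150 and 488 in KO, and 3592, 6111, 1725 and 1814 in AAV. It fell by 1.46 ± 0.43 in KO vs WT (limma adjusted p = 0.0328), with WT 1 inside the KO range, and rose by 1.82 ± 0.43 in AAV vs KO (adjusted p = 0.0159). The KO vs WT call for Ldhb was lost without WT 2, WT 4, KO 1 or KO 4 (adjusted p = 0.0835, 0.0897, 0.0876 and 0.0876) and with the gene length correction (-1.15, adjusted p = 0.076), and that for Hk1 without WT 2 or WT 4 (0.0527 and 0.0535). Hk1 without WT 3 differed by -2.89 (adjusted p = 8.1e-07 by limma). That fit called 3585 of 14796 genes higher and 3578 lower, against 1826 and 2271 of 14859 with every library.

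Several marker genes of other fibres and cells differed in the same comparisons, to be read against the 12.3% and 15.3% of all genes called higher and lower in KO vs WT and the 12.8% and 13.4% in AAV vs KO. Slow fibre markers fell in KO vs WT at 8 of 8 genes and rose in AAV vs KO at 7 of 8, and among them Tnni1 was at 7 to 15 counts in KO against 165 to 1309 in WT. Macrophage markers fell in KO vs WT at 3 of 5 genes, while 0 of 5 were called in AAV vs KO, and Cd68 was at 560, 590, 70 and 568 in WT, 28 to 37 in KO and 127, 75, 35 and 415 in AAV. For Hk1 and Cd68 alike, WT 3 was the lowest WT library and AAV 4 the highest AAV library. Endothelial markers were called higher in KO vs WT at 2 of 6 genes, with 0 called in AAV vs KO, and red blood cell markers higher in AAV vs KO at 2 of 5, with 0 called in KO vs WT. Fast fibre markers gave 1 call in each direction among 10 in KO vs WT and 1 higher in AAV vs KO, and fibroblast markers 1 higher among 6 in KO vs WT and 1 lower in AAV vs KO. Adipocyte and Schwann cell markers gave 0 calls by limma in either comparison. The part of these cells and fibres in the isoform values was not tested.

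Within each library the muscle isoform was set against the widespread one. The ratio of Hk2 to Hk1 was 5.97, 5.98, 56.9 and 8.49 in WT, 76.1, 69.0, 76.7 and 99.4 in KO, and 36.7, 63.0, 55.8 and 9.09 in AAV. On the log2 scale its mean was 6.31 ± 0.23 in KO, 3.52 ± 1.56 in WT and 5.04 ± 1.28 in AAV (SD, n = 4). The ratio of Eno3 to Eno1 was 237 to 402 in WT, 481 to 638 in KO and 235 to 369 in AAV. For Hk2/Hk1, Aldoa/Aldoc and Eno3/Eno1 the KO libraries did not overlap either other group, which gives p = 0.0286 in the exact two-sided permutation test, the smallest it can give with 4 against 4. After adjustment over 18 tests (6 ratios, 3 comparisons) the lowest p was 0.0857 in this exact permutation test, so that no ratio passed. With that floor 11 of the 18 tests would have had to separate the groups fully for any to pass, and 6 did, so that the failure to pass says little about the ratios. Aldoc was counted at 3 to 11 only, and Pgam1 at 7 to 30, so that these ratios rest on few reads. Ldha/Ldhb was 17.5 to 87.1 in WT, 54.7 to 147 in KO and 10.6 to 55.1 in AAV (exact permutation p = 0.0857 and 0.0571 for KO vs WT and AAV vs KO), and Pfkm/Pfkl did not separate the groups.

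**Figure D4:**
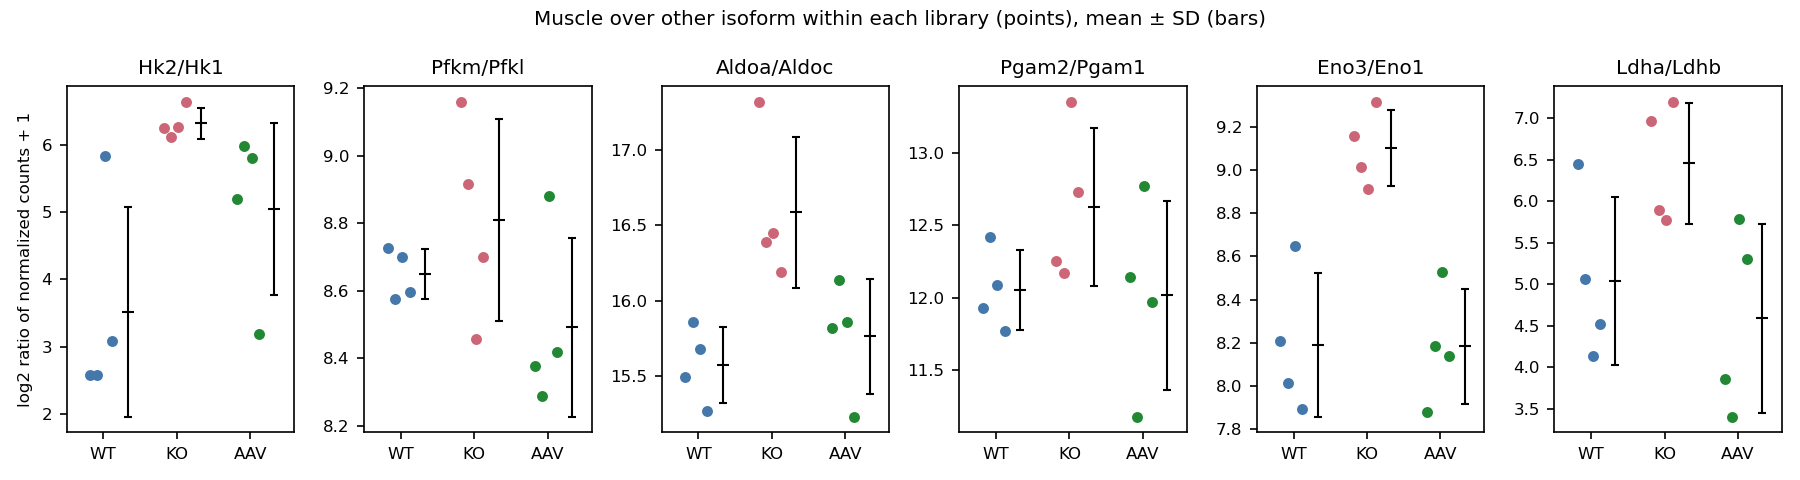
Log2 ratio of the normalized counts (each plus 1) of the muscle isoform to another isoform within each library (points), with mean ± SD, for 6 pairs; vertical axes do not start at 0. KO libraries lie above all others for Hk2/Hk1, Aldoa/Aldoc and Eno3/Eno1.

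The next genes bring glucose in, carry lactate out or set the flux. Of 24 such genes tested, 9 rose and 6 fell in KO vs WT, and 5 rose and 4 fell in AAV vs KO (limma; over all genes 12.3% and 15.3%, and 12.8% and 13.4%). Slc2a4 (GLUT4), the insulin-responsive glucose transporter of muscle, was 0.66 ± 0.16 higher in KO than in WT (adjusted p = 0.0141 by limma). Slc2a3 (GLUT3), known from neurons, had 98, 85, 280 and 81 counts in WT, 659, 463, 694 and 643 in KO and 205, 230, 433 and 61 in AAV. It was 2.36 ± 0.36 higher in KO vs WT (adjusted p = 0.00262) and fell by 1.68 ± 0.47 in AAV vs KO (adjusted p = 0.0284), a call lost without any of the KO libraries or AAV 1 (0.0507 to 0.0709, limma).

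Slc2a1 (GLUT1), the transporter of most cells, went the other way, with 1093, 1249, 289 and 1171 counts in WT, 166 to 223 in KO and 754, 482, 255 and 1137 in AAV. It fell by 2.15 ± 0.41 in KO vs WT (limma adjusted p = 0.00645) and was 1.62 ± 0.38 higher in AAV vs KO (adjusted p = 0.0153). As with Hk1 and Cd68, WT 3 was the lowest WT library and AAV 4 the highest AAV library. Without both, AAV differed from WT by -1.37 for Slc2a1 and -2.03 for Hk1, and both passed the test (adjusted p = 0.0238 and 0.00221), a comparison chosen after the values were seen. Slc2a3, Slc2a4, Pfkfb1, Epas1 and Mlxipl passed it too (limma adjusted p = 0.00785, 0.0332, 0.00377, 0.0207 and 0.0256). Calls over all genes also rose in that fit, to 1025 higher and 1012 lower among 14767, against 142 and 51 among 14939 with every library. Without WT 2 and AAV 4, the libraries that stood apart for Gaa, AAV differed from WT by -0.66 for Slc2a1 and -1.08 for Hk1, and neither was called (limma adjusted p = 0.617 and 0.496). That fit called 6 genes higher and 4 lower among 14710. The lactate carriers split likewise: Slc16a3 (MCT4), the exporter of fast fibres, was 0.74 ± 0.16 higher and Slc16a1 (MCT1) fell by 0.89 ± 0.22 in KO vs WT (limma adjusted p = 0.0110 and 0.0182; without WT 1 that of Slc16a1 was 0.0506).

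Pfkfb3 makes fructose-2,6-bisphosphate, the activator of phosphofructokinase. It had 4901, 4710, 4196 and 5336 counts in WT, 19652, 12297, 12551 and 13758 in KO, and 1460, 2705, 7771 and 3032 in AAV. All KO libraries lay above all others, by 1.58 ± 0.16 over WT on the log2 scale (limma adjusted p = 0.000478), and AAV fell by 2.20 ± 0.41 from KO (adjusted p = 0.00747). Each call was kept under all 18 alternatives tried for it. The enzyme Pfkfb3 activates, Pfkm, had 0.34 and -0.27 in the same comparisons. Pfkfb1, another enzyme of that kind, was 0.81 ± 0.26 higher in KO vs WT (limma adjusted p = 0.0416), a call lost without any library but WT 3 (0.0732 to 0.11) and with edgeR (0.0704), and gave 0.63 ± 0.31 in AAV vs WT (adjusted p = 0.317).

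At the exit to mitochondria, Mpc2, a subunit of the pyruvate carrier, fell by 1.15 ± 0.17 in KO vs WT (limma adjusted p = 0.00226) and gave 0.08 ± 0.18 in AAV vs KO. Its counts were 6465 to 9607 in WT, 2672 to 4029 in KO and 2852 to 4645 in AAV, and in AAV vs WT it was called by limma (-1.07 ± 0.19, adjusted p = 0.0400). Leaving out any of the 8 libraries but WT 3 ended the AAV vs WT call (limma adjusted p = 0.0517 to 0.133), as did leaving out WT 2 and AAV 4 together (0.161). Its partner Mpc1 gave -0.02 ± 0.29 in KO vs WT. Pdk4, the kinase that switches pyruvate dehydrogenase off, gave -0.997 ± 0.31 in KO vs WT and 0.88 ± 0.28 in AAV vs KO (adjusted p = 0.0385 and 0.0454); the first call was lost without WT 1, WT 2, KO 1, KO 3 or KO 4 (0.0533 to 0.10) and the second without any library but AAV 3 (0.0535 to 0.119), in the fit of all 12 libraries (0.0751) and with the gene length correction (0.0515). Pdp1, the phosphatase that switches pyruvate dehydrogenase on, was 0.63 ± 0.16 higher in KO vs WT (adjusted p = 0.0185, and 0.0532 without WT 4) and fell by 0.84 ± 0.14 in AAV vs KO (adjusted p = 0.00530). Of the glycerol phosphate dehydrogenases, which link triose phosphate and glycerol phosphate, Gpd1 and Gpd2 were 0.71 and 0.86 higher and Gpd1l fell by 0.82 in KO vs WT (limma adjusted p = 0.0122, 0.0107 and 0.00279).

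Transcription factors known to act on glycolytic genes gave 6 rises and 1 fall among 13 in KO vs WT and 0 rises and 4 falls in AAV vs KO, beside 12.3% and 15.3%, and 12.8% and 13.4%, of all genes. Mef2a, a factor of muscle genes, had 3419, 1950, 4403 and 2411 counts in WT, 5116, 5158, 5070 and 6132 in KO and 2901, 3440, 2906 and 2245 in AAV, so that every KO library lay above all others. It was 0.88 ± 0.23 higher in KO vs WT (limma adjusted p = 0.0198) and fell by 0.91 ± 0.14 in AAV vs KO (adjusted p = 0.00391). Six4 and Mlxip were called in the same directions in both comparisons, at 0.81 and 0.50 in KO vs WT and -0.87 and -0.63 in AAV vs KO. Epas1, a hypoxia-inducible factor, and Mlxipl, a glucose-sensing factor, were 0.84 and 0.52 higher in KO vs WT and Myod1 fell by 0.58 (limma adjusted p = 0.0233, 0.0308 and 0.0248). In AAV vs WT Epas1, Mlxipl and Myod1 gave 0.57, 0.94 and -0.44 (limma adjusted p = 0.316, 0.0559 and 0.246). Mlxipl was called there by DESeq2 (adjusted p = 0.00155), with total count scaling (0.0444) and in a limma fit of all 12 libraries (0.00919), but not by edgeR (0.055). In AAV vs KO Mlxipl gave 0.42 ± 0.15 without overlap of the groups (limma adjusted p = 0.0658), and it was called higher by DESeq2 (0.0384), with total count scaling (0.0406), with the gene length correction (0.0443) and without AAV 3 (0.0253). The KO vs WT calls of these 6 genes did not hold with 1 library fewer in each case by limma: that of Mef2a was lost without WT 4 or KO 4 (adjusted p = 0.0595 and 0.0562), that of Six4 without WT 1, 2 or 4 or KO 1, 2 or 4 (0.0531 to 0.0851; its AAV vs KO call was lost without KO 1, at 0.05003), that of Mlxip without WT 2, WT 4, KO 1, KO 2 or KO 4 (0.0503 to 0.0715), that of Epas1 without WT 2, WT 4, KO 1, KO 2 or KO 3 (0.0501 to 0.0659), that of Mlxipl without any library but WT 2 or WT 3 (0.0519 to 0.0833), and that of Myod1 without WT 1, 2 or 4, KO 1 or KO 3 (0.0508 to 0.0739). The gene length correction also ended 4 of these calls, giving 0.56 for Six4, 0.30 for Mlxip, 0.41 for Mlxipl and -0.30 for Myod1 (limma adjusted p = 0.0509, 0.0624, 0.0876 and 0.118). Hif1a, at 193 to 494 counts, was not called (0.36 ± 0.27, adjusted p = 0.334), but without WT 3 it was (0.62, adjusted p = 0.0207). Leaving out WT 3 also raised the calls over all genes, from 1826 higher and 2271 lower to 3585 and 3578. KO libraries serve in both comparisons, so that opposite signs in the pair are not independent of each other.

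**Figure D5:**
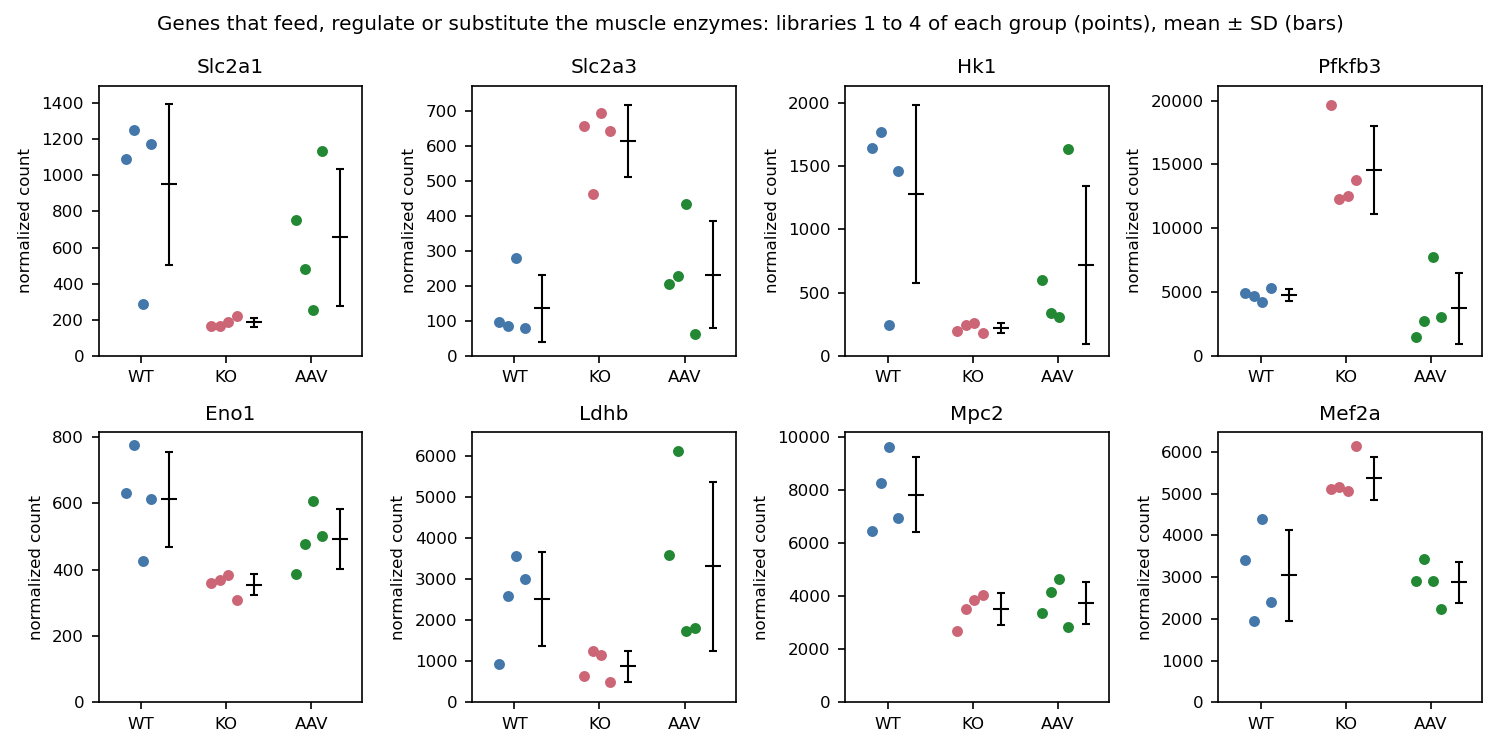
Normalized counts (vertical axes, from 0) of 8 genes that feed, regulate or substitute the muscle enzymes, in libraries 1 to 4 of each group (points), with mean ± SD. KO libraries are above all others for Slc2a3, Pfkfb3 and Mef2a and below all others for Slc2a1, Hk1 and Eno1, except that WT 3 lies within the KO range for Hk1.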

How the data were processed

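Quadriceps RNA of 12 mouse libraries (4 WT, 4 KO, 4 AAV, by the labels) was sequenced. The authors trimmed reads (Trim Galore 0.4.1 in the submitters' processing notes), aligned them with STAR to the mouse genome, discarded reads with several locations, counted the rest per gene with HTSeq 0.6.1 and divided the counts by DESeq2 size factors. These deposited normalized counts are a signal, not raw counts, but 100% of values in all 12 libraries were whole multiples of 1 read (tolerance 0.02). The deposited tables also hold the authors' log2 fold change with its error, test statistic (a score) and p-values per gene, which were not used. KO columns in both tables differed by 0, and 0 per-sample columns were left unmatched.

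Values were compared by limma 3.58.1 with a trend on log2(value + 1), where a fold change understates that of low genes, on genes that reached 10 in at least 1 of 8 libraries. P-values were adjusted by Benjamini-Hochberg across all genes. Limma took the place of the count test planned for raw counts. Alternatives were edgeR 4.0.16 and DESeq2 1.42.0 on the recovered reads, other scalings, filters, a pseudocount of 0.1, gene length, a replicate block and libraries left out. Isoform ratios were compared by exact permutation tests (scipy 1.17.1). Copies were found with BLAST 2.17.0 in GENCODE M21, and 15186 of 15344 identifiers were in that annotation. Promoters are RefSeq (GRCm38.p6). Code was tested on simulated data.

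The members, lists and tests were chosen with earlier results of these data known. Genes outside the 10 were named as isoform partners, as the 6 listed genes with the lowest adjusted p per comparison at a mean of at least 50, or as examples of the lists; Eno2, Slc2a4, Slc16a1, Slc16a3, Pdk4, Mpc1, Gpd1, Gpd2, Six4 and Hif1a were named after their values were seen. Some listed genes that this rule selects are not reported here.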

Additional observations from a re-analysis of the deposited data

Results flagged for a closer look

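In 114 groups of 4 libraries tested for a single distant library, 9 had one, where chance gives about 1 in 20. Among the members, Gapdh in WT 4 was low at 267 normalized counts and Pgam2 in AAV 3 high at 105994. Among the other genes, WT 3 was apart for Slc2a1 (289), Slc2a3 (280) and the log2 ratio of Hk2 to Hk1 (5.83), the library whose Cd68 count (70) was also far from those of WT 1, 2 and 4. The remaining distant values were Pgam1 in AAV 2 (30.2), Pkm in KO 1 (74411), Mef2a in KO 4 (6132) and Pfkfb1 in AAV 4 (733).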

How the results depend on the processing

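The number of members called changed in few settings. In KO vs WT, 1 was called higher, 2 with DESeq2 (Hk2 and Pfkm) and 2 with the gene length correction (Hk2 and Pgam2), and 0 to 1 with a library left out; 0 were called lower in any setting. In AAV vs KO, 0 were called, except 1 higher with total count scaling (Gapdh) and, with a library left out, 0 to 1 lower (Eno3 without AAV 3). In AAV vs WT, 0 were called, except Hk2 as 1 higher with DESeq2, with total count scaling, with all 12 libraries in one fit and without both WT 3 and AAV 4, the last chosen after seeing the data. Those settings called 624, 283, 606 and 1025 genes higher over all genes, against 142 in the main fit. The cause of these changes was not tested. With libraries left out, the share of counts in the 10 members was 2.79% to 3.12% in WT, 3.33% to 3.39% in KO and 2.90% to 3.29% in AAV. Replicate numbers showed no pairing: the correlation of same-numbered libraries ran from -0.115 to 0.0253 (KO and WT), -0.176 to 0.0618 (AAV and KO) and -0.355 to 0.554 (AAV and WT), and 0, 1 and 2 of 4 libraries correlated best with their own number. With the replicate block 1 member was called higher in KO vs WT and 0 in the other comparisons. It ended the KO vs WT calls of Mlxipl, Eno2 and Six4 (adjusted p = 0.0621, 0.0669 and 0.0682) and the AAV vs KO calls of Hk1 and Eno1 (0.0759 and 0.0827). Few counted reads limit the precision of Aldoc and Pgam1, and the levels of Gapdh, Pgk1 and Eno1 are uncertain because of near-identical copies. Pgam1 had 0 such copies, but only 58.5% of its stretches were unique, so that its level is uncertain too. Pkm (5 copies, 69.5% unique stretches) and Ldhb (1 copy, 73.0%) share this limit in part.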

Other observations

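A pseudogene of Ldha, Gm11814 (processed pseudogene, chr4:10438815-10439743, - strand, GRCm38), separated the KO libraries from each other. It had 1382, 29.9, 1162 and 1369 normalized counts in KO libraries 1 to 4, against 15.2 to 30.8 in the 8 WT and AAV libraries. Ldha itself had 78954, 73959, 62892 and 71893 counts in those KO libraries, so that KO 2 lay within the range of the others for the enzyme. Of 15344 genes, 2 had at least 50 counts in KO 1, 3 and 4 and at least 3 times the highest of the other 9 libraries, Gm11814 and Eif3j2 (402, 13.7, 420 and 391 in KO), and 0 had the opposite pattern. The pseudogene of Gpi1, Gm1840, came near it with 308, 77.0, 252 and 298 in KO and 64.2 to 99.9 elsewhere. These genes were named after their values were seen, and the source of the reads was not tested.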
